A study of Homo sapiens with 9 samples.

Results

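The long intergenic noncoding RNAs (LINC RNAs) described here were the probe sets of HG-U133 Plus 2.0 arrays whose platform annotation names exactly 1 gene with a symbol made of LINC and a number, and whose mean over the 9 arrays was 6.5 or more on the deposited log2 scale. They were thus chosen by a measured mean level, so that level is a description and no finding. Of 1084 probe sets of 840 LINC genes, 174 probe sets of 151 genes met the rule. The arrays came from BL2 cells, an established human Burkitt lymphoma line used as a model of germinal centre B cells. Control cells were left unstimulated, and the other cells received 200 ng/ml CD40L, the helper T cell ligand of the receptor CD40, or 1 µM LPS, a bacterial glycolipid sensed by a Toll-like receptor, for 6 hrs. Each of 3 experimental batches, which the methods describe as biological repeats, gave 1 array per condition, so n = 3 throughout. All cells were of the same line, without genetic modification in the labels, and a single line limits what the arrays can say of B cells in general.

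LINC RNAs are transcripts that are spliced and polyadenylated much like messenger RNAs but carry no long open reading frame. Many are present at low levels and in few cell types, and a number of them act near their own gene, where transcription or the RNA itself can alter the activity of a neighbouring gene. Others work away from their locus, as scaffolds for chromatin proteins or by binding microRNAs. In B cells the class is known mainly from surveys of lymphocyte stages and lymphomas, and the function of most members is not known.

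Differences are given as log2 fold changes with the standard error (SE) from limma, fitted to all 54613 probe sets with condition and batch as terms. A probe set passed the test at an adjusted p (Benjamini-Hochberg over all 54613) of 0.05 or less. Most markers matched the label of the line, but LMO2 lay within the range of the genes of other cell types and tissues. The brightest probe set of each of the 7 measured B cell genes lay between 8.83 (CD22) and 13.0 (MS4A1), and those of 6 germinal centre genes between 6.64 (LMO2) and 11.2 (RGS13). Of 30 genes of T and NK cells, monocytes, fibroblasts and other tissues, the brightest probe sets of 8 reached 6.5, with a median of 6.31 over the 30 genes and a range from 5.80 (LUM) to 7.94 (COL1A1).

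As a class the LINC probe sets were dim. The floor was reached by 16.1% of them, against 47.1% of all probe sets tested, 24.7% of probe sets for antisense RNAs and 20.0% of those for microRNA host genes. Probe sets for snoRNA host genes of the SNHG group (50%) and for a list of single well-known long noncoding RNAs such as MALAT1 and NEAT1 (53.2%) reached it about as often as probe sets in general. The floor itself lay close to the array medians, which ran from 6.42 to 6.47, and 20.6% of the 63 probe sets for the genes of other cell types and tissues lay at or above it. A mean of 6.5 alone therefore does not show that a LINC RNA was expressed. Probe sets also bind with different strength, so their order by level is not an order of transcript abundance.

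**Figure D1:**
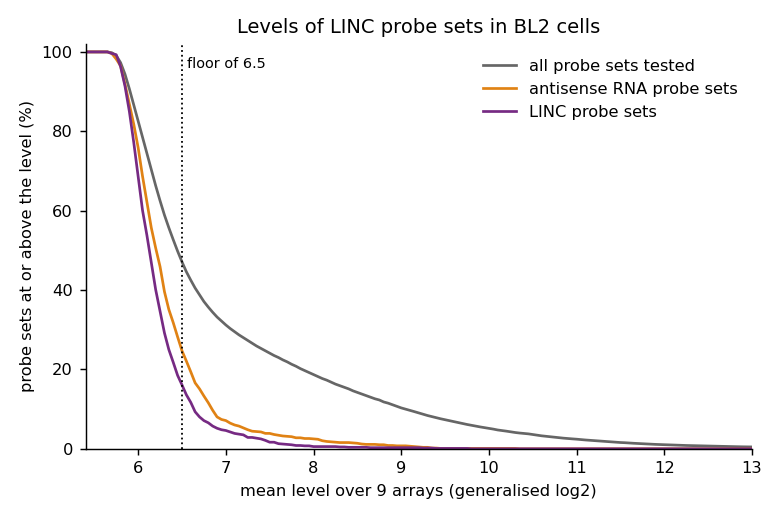
Share of probe sets (%) whose mean over 9 arrays lay at or above each level on the generalised log2 scale, for LINC probe sets, antisense RNA probe sets and all probe sets tested. At the dotted floor of 6.5 the curves stood at 16.1%, 24.7% and 47.1%.

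Most of the 174 probe sets sat just above the floor. Their median level was 6.71 and their range 6.501 to 9.76, with 47 below 6.6, 50 at 7 or more, 6 at 8 or more and 3 at 9 or more. The 3 just inside were probe sets of LINC03008 (6.5006), LINC00957 and LINC01226 (6.5007 each), and the 3 just outside were LINC02944 (6.4963), LINC00927 (6.4934) and LINC00408 (6.4881). All 174 probe sets matched a gene of the RefSeq table for GRCh38.p14 by identifier, each of the long noncoding type and with the same symbol. The 151 genes were spread over 23 chromosomes, with the most, 19, on chromosome 1.

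The 10 brightest were probe sets of LINC00623 (9.76), LINC00621 (9.37), LINC01857 (9.23), LINC01003 (8.61), LINC00938 (8.40), LINC01215 (8.26), LINC01128 (7.99), LINC01210 (7.98), LINC00957 (7.85) and LINC01134 (7.78). Of these, only LINC01215 passed the test in any comparison. The LINC00623 and LINC00621 probe sets carry the suffix of designs whose probes also match other transcripts, as did 13 of the 174 in all, and their levels are uncertain for that reason. A further 14 members carry a suffix for probes that can be shared between transcripts. They include the LINC01003 and LINC01128 probe sets named here and the LINC00926 probe set that passed the test. LINC01857 varied more between batches than between conditions. Its control arrays stood at 9.20, 9.44 and 9.04, its CD40L arrays at 8.88, 9.55 and 9.24, and its LPS arrays at 9.09, 9.38 and 9.28 in batches 1 to 3. Its batch means had a range of 0.40, the widest of all 174, while CD40L and control differed by -0.01 (SE 0.084).

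Across conditions the class hardly moved. The range of the 3 condition means was under 0.1 for 116 probe sets, under 0.2 for 168 and above 0.5 for 1, with a median of 0.074, while the median range of the 3 batch means was 0.086. The median over all 174 on a single array stayed between 6.69 and 6.76. The 95% interval of the difference from control lay wholly within 0.3 of 0 for 164 of 174 probe sets after CD40L and for 167 after LPS, so changes beyond that size were bounded for most of the class on this scale. The scale is flatter for dim probe sets and understates their fold changes.

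After CD40L, 5 LINC probe sets were higher than in control, with 3.71% of all probe sets called higher, and 1 was lower, with 1.87% of all called lower. The members' shares were 2.87% and 0.575%, and among all 25712 probe sets at or above the floor the shares were 7.68% and 3.78%. After quantile normalization the members split into 4 higher and 3 lower, and all probe sets into 3.13% higher and 3.1% lower. After LPS, 2 LINC probe sets were higher and 0 lower, where 1.17% and 0.892% of all probe sets were called. Among all probe sets at or above the floor those LPS shares were 2.44% and 1.82%. At an unadjusted p under 0.05 limma gave 12 members higher and 10 lower after CD40L (6.90% and 5.75%, against 10.3% and 5.48% of all probe sets). After LPS it gave 7 higher and 3 lower (4.02% and 1.72%, against 7.06% and 4.57%). Above the floor the like shares of all probe sets were larger, 19.7% and 8.99% after CD40L and 13.3% and 7.63% after LPS. Between CD40L and LPS directly, 1 was higher after CD40L (0.3% of all probe sets) and 0 were lower (0.0952% of all), with 5 and 4 at an unadjusted p under 0.05 (2.87% and 2.30%, against 2.94% and 2.04% of all). Above the floor, 0.614% and 0.194% of all probe sets passed in this comparison, and 4.95% and 2.92% at the unadjusted p. Both treatments were set against the same control arrays, so their lists are not independent of each other. The higher calls of each comparison include the LINC00158 probe set, which reached the floor only through its treated arrays.

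The members were also dimmer than most probe sets above the floor, so the counts were set against probe sets of like level. In the range from 6.5 to 7, 1 of 124 members passed the test after CD40L (0.806%), against 2.87% of all probe sets of that range. From 7 to 8 the members' count was 4 of 44 (9.09%, against 12.2%), and at 8 or more it was 1 of 6 (against 18.3%). Of those 4, 1 was LINC00158, which reached the range from 7 to 8 only through its treated arrays (control mean 6.4954). The median size of the CD40L difference over members was 0.0542, against 0.0814 for all probe sets at or above the floor, without matching by level. Matched by level it was 0.0485 against 0.0519 from 6.5 to 7 and 0.0729 against 0.0907 from 7 to 8. At 8 or more it was 0.122 against 0.116. The median difference itself was -0.018 for the members and 0.023 for all probe sets at the floor. Arrays of CD40L and control did not overlap for 13 members that were higher and 17 that were lower, 7.47% and 9.77%, against 13.7% and 8.58% of all probe sets at the floor. The 13 include probe sets of LINC00158, LINC02579 and LINC03125, whose control means lay below the floor. These entered the list only through treated arrays, which favoured that count.

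**Figure D2:**
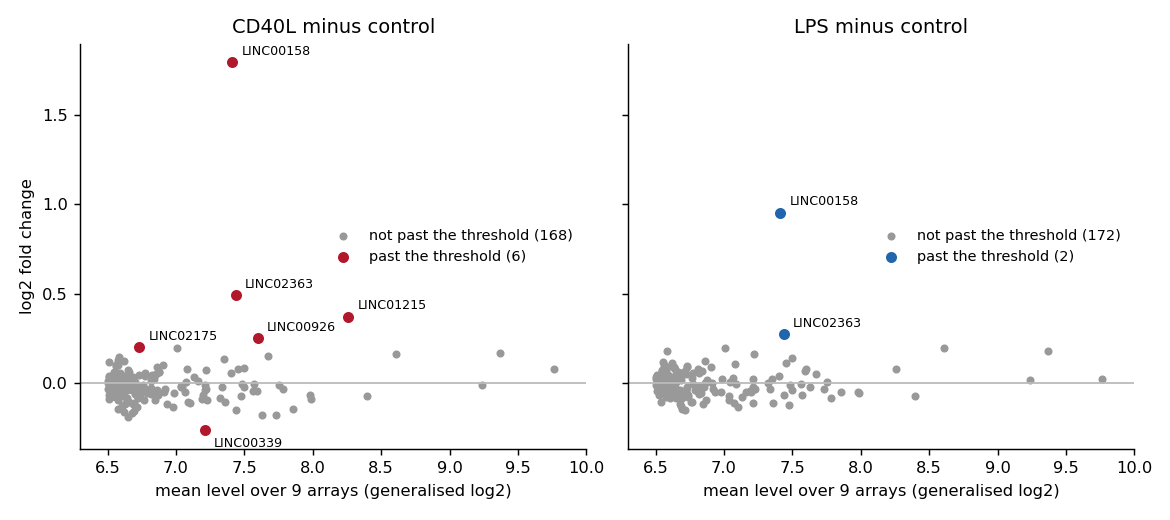
Log2 fold change against control (y axis) and mean level over 9 arrays on the generalised log2 scale (x axis) for the 174 LINC probe sets, after CD40L (left) and LPS (right). Coloured points passed the test, 6 after CD40L and 2 after LPS, and the grey points lie between -0.19 and 0.20 after CD40L.

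LINC00158 stood apart from the rest of the class in size. This RNA of chromosome 21 has no function that is well established. The authors list it among the genes most altered by CD40L and by LPS, and also under other stimuli not covered here. Control arrays of its probe set read 6.47, 6.55 and 6.48 in batches 1 to 3, the LPS arrays 7.34, 7.45 and 7.56, and the CD40L arrays 8.14, 8.38 and 8.35. The 3 groups formed 3 separate steps with no overlap. Its rise after LPS was 0.95 (SE 0.061, 1.94-fold, adjusted p = 1.74e-06), and CD40L exceeded LPS by a further 0.84 (SE 0.061, 1.79-fold, adjusted p = 7.55e-06). The gap between the treatments was 0.80, 0.93 and 0.79 in the 3 batches. With 1.79 after CD40L, no LINC probe set, with or without the floor, had a larger difference, and it was the only member whose condition means differed by more than 0.5. Its control mean of 6.4954 was below the floor, so it entered the list through the treated arrays. Of the 7 members with a control mean under 6.5, the probe sets of LINC02579, LINC01226, LINC00957, LINC01843, LINC03125, LINC01806 and LINC00158, only that of LINC00158 passed the test.

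The promoter that RefSeq gives for LINC00158 is shown because this gene moved most, and those of LINC01215, LINC02175 and LINC00339 because they are the other genes past the test with an entry; LINC02363 and LINC00926 had none. Each runs from 250 bases before to 50 after the start site, 5′ to 3′ on the gene's strand in GRCh38.p14. Both strands were searched for AP-1 (TGANTCA), CRE (TGACGTCA), STAT (TTCNNNGAA), the NF-kB consensus and the ISRE core, and capitals mark a match. LINC00158 lies on the minus strand at chr21:25431652-25431951, LINC01215 on the plus strand at chr3:108125571-108125870, LINC02175 on the plus strand at chr16:25066637-25066936 and LINC00339, first of 2 entries, on the plus strand at chr1:22024941-22025240.
LINC00158: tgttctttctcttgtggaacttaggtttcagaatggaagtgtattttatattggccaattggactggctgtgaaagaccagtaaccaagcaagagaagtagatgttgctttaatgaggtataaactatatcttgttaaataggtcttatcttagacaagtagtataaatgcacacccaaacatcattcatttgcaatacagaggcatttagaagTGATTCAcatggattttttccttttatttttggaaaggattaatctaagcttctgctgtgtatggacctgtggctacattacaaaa
LINC01215: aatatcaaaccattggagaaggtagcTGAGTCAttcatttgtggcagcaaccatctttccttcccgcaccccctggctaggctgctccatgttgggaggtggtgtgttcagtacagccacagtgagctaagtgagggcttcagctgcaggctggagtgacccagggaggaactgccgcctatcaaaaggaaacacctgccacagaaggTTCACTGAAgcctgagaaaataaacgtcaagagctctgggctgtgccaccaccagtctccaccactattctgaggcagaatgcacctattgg
LINC02175: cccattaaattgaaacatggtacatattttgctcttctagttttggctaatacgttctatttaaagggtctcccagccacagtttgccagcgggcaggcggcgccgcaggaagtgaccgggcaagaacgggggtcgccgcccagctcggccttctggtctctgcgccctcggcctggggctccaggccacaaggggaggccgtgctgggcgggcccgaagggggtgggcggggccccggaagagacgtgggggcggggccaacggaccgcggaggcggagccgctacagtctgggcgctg
LINC00339: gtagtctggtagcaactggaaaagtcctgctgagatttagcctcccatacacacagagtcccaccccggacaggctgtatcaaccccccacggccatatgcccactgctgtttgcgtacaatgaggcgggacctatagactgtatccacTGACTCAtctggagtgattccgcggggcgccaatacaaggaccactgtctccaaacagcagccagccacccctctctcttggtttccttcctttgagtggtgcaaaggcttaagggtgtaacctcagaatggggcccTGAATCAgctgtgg

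The LINC00158 window held 1 AP-1 match, TGATTCA, beginning 36 bases before the start site, and no match to the other 4 patterns. It was poor in G and C, 34.7% against a median of 58.7% over 35116 promoters, and had 0 CpG pairs against a median of 14. LINC01215 held the AP-1 letters TGAGTCA far upstream, 224 bases before the start, and the STAT letters TTCACTGAA 42 bases before it. The LINC02175 window had no match and was rich in CpG pairs (25, with 65.7% G and C). LINC00339 had AP-1 letters on both sides of its start in the window shown, and no match in its second entry, at chr1:22025254-22025553. Of all promoters, 7.71% held an AP-1 match, 7.66% a STAT match, 5.91% the NF-kB consensus, 3.57% the ISRE core and 1.85% a CRE match. Among the 121 promoters of 107 member genes the shares were 10.7%, 8.26%, 5.79%, 1.65% and 2.48%. A match is a run of letters only, and no binding was measured in these cells.

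LINC02363 was the other member that passed the test after both treatments. Control arrays of its probe set read 6.99, 7.23 and 7.31, CD40L arrays 7.44, 7.73 and 7.85, and LPS arrays 7.33, 7.48 and 7.54. CD40L and LPS arrays all lay above the control array highest in level, at 7.31. The rise was 0.49 (SE 0.058, 1.41-fold, adjusted p = 5.57e-05) after CD40L and 0.27 (SE 0.058, 1.21-fold, adjusted p = 0.0191) after LPS, and each batch showed both. The direct difference of 0.22 between the treatments did not pass the test (95% interval 0.10 to 0.34, adjusted p = 0.216). The LPS call was lost without batch 1 (adjusted p = 0.269), without batch 3 (0.119), without the batch term (0.429) and with the batch as a random effect (0.305). A further probe set of LINC02363, at 6.43 just under the floor, differed by 0.08 after CD40L (adjusted p = 0.619).

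LINC01215, whose gene is followed by IFT57 and preceded by CD47 on chromosome 3, was the brightest of those that changed. Control arrays of its probe set were close together, at 8.12, 8.10 and 8.11, and the LPS arrays at 8.19, 8.21 and 8.16 lay just above them. The CD40L arrays read 8.37, 8.50 and 8.57, higher than all others. It rose by 0.37 after CD40L (SE 0.060, 1.29-fold, adjusted p = 0.0012). LPS gave 0.08 (95% interval -0.05 to 0.21, adjusted p = 0.715), and the direct difference of 0.29 between CD40L and LPS missed the threshold narrowly (95% interval 0.16 to 0.42, adjusted p = 0.0501). In a fit of CD40L and LPS arrays alone it passed (adjusted p = 0.00301).

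The remaining 3 calls were smaller and less stable. LINC00926, an RNA known for its expression in the B cell lineage, read 7.21, 7.68 and 7.58 in control, 7.55, 7.86 and 7.81 after CD40L, and 7.31, 7.64 and 7.76 after LPS. The 3 groups overlapped, and all conditions were lowest in batch 1, while within each batch CD40L was above control, by 0.34, 0.18 and 0.24. Its rise was 0.25 after CD40L (SE 0.061, 1.19-fold, adjusted p = 0.0218), which was lost without the batch term (adjusted p = 0.483), with the batch as a random effect (0.378), without batch 1 (0.289), without batch 3 (0.0901), in a fit of CD40L and control arrays alone (0.0566) and after quantile normalization (0.0931). A second LINC00926 probe set pointed the same way without passing, at 0.14 (adjusted p = 0.273).

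LINC02175 was the only one called in the dim range below 7. Its arrays read 6.64, 6.70 and 6.56 in control, 6.91, 6.83 and 6.75 after CD40L, and 6.74, 6.80 and 6.64 after LPS. CD40L arrays lay above all control arrays, by 0.20 on average (SE 0.056, 1.15-fold, adjusted p = 0.0451). The call was lost without batch 1 (adjusted p = 0.39), without batch 3 (0.18), without the batch term (0.146), with the batch as a random effect (0.102) and with CD40L and control arrays alone (0.123). The other LINC02175 probe set, at nearly the same level (6.73), gave -0.02 (adjusted p = 0.95), so its probe sets disagreed.

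LINC00339 was the sole LINC RNA called lower at or above the floor. It is known from work on blood vessel and bone cells as a neighbour of CDC42, the gene of a small GTPase that organises actin. Control arrays read 7.38, 7.37 and 7.25, CD40L arrays 6.99, 7.15 and 7.08, and LPS arrays 7.16, 7.27 and 7.24. All CD40L arrays lay below all control arrays, and the LPS arrays overlapped with the lowest control array. It fell by 0.26 after CD40L (SE 0.060, 1.20-fold, adjusted p = 0.0146), and the LPS value was -0.11 (adjusted p = 0.522). Without batch 1 the CD40L difference was -0.20 (adjusted p = 0.268), and with CD40L and control arrays alone its adjusted p was 0.0577. Below the floor 1 further LINC probe set was called, LINC01649 at a level of 5.90, which was lower after CD40L by a log2 difference of -0.20 (adjusted p = 0.0372).

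**Figure D3:**
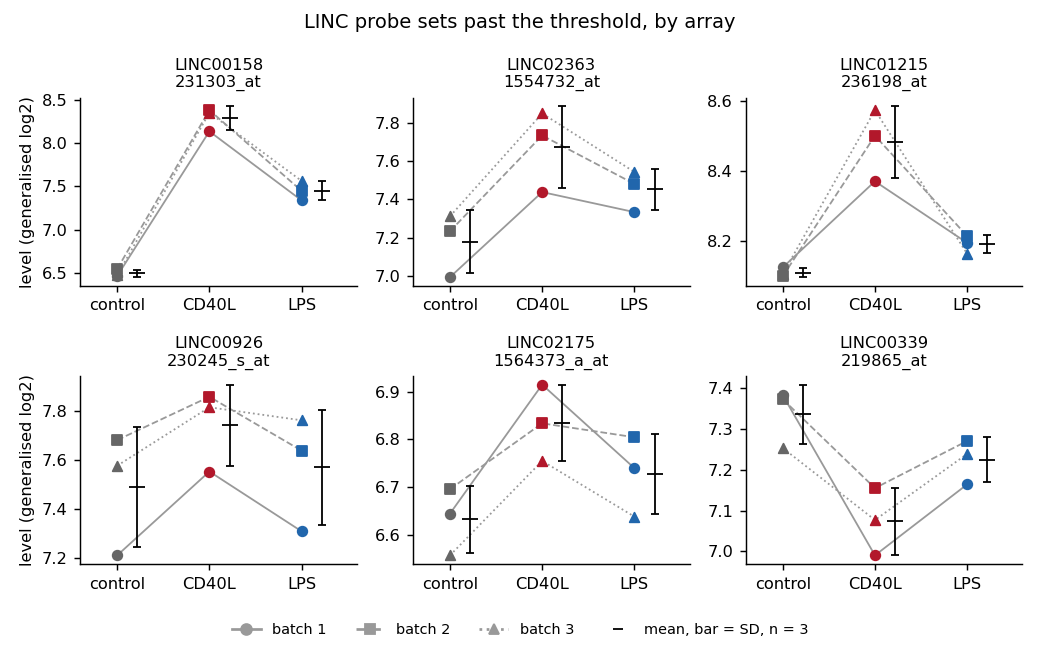
Level on the generalised log2 scale (y axis, a separate range in each panel that does not start at 0) of the 6 LINC probe sets past the test in control, CD40L and LPS cells. Grey lines join the arrays of a batch, black marks are means with SD (n = 3). LINC00158 rose in 3 separate steps, and LINC00926 shows batch 1 below the other batches in each condition.

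Several other members passed an unadjusted p of 0.05 in limma without passing the adjustment, and the nearest to it was LINC00674. Its probe set lay at 7.76, 7.90 and 7.75 in control, 7.66, 7.68 and 7.54 after CD40L and 7.75, 7.85 and 7.72 after LPS. The CD40L arrays lay below all control arrays, with a difference of -0.18 (SE 0.055, adjusted p = 0.0805). It passed after quantile normalization (-0.23, adjusted p = 0.0252), as did LINC02210 (-0.22, adjusted p = 0.039). The other listed probe sets of these genes gave -0.02 for LINC00674 (adjusted p = 0.938) and -0.05 for LINC02210 (adjusted p = 0.836) after CD40L in the fit without that normalization. These names were chosen after their values were seen.

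Where a gene had several probe sets on the list those probe sets often differed in level and in sign. Such genes numbered 21, with 44 probe sets between them and at most 3 each. The median gap in level between the dimmest and brightest probe set of a gene was 0.46, with 1.37 for LINC01128 and 1.35 for LINC00957 as the widest. All probe sets of a gene had the same sign of difference for 9 of 21 genes after CD40L and 13 of 21 after LPS. Over all members the median size of the CD40L difference was 0.0542, below the median SE of 0.0602. Nothing is therefore read from these counts of signs.

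The neighbours of the 6 genes were compared next, because such RNAs are often studied for effects at their own locus. Neighbours were the nearest genes on each side in RefSeq order with a probe set naming them alone, each represented by its brightest probe set. Of the 12 nearest protein coding genes, 3 rose after CD40L and 0 fell, where 5.89% and 3.33% of the 16517 protein coding genes measured in this way rose and fell. With 12 genes nothing is read from that count. MRPL39, a protein of the mitochondrial ribosome encoded beside LINC00158, stood at 10.83, 10.76 and 10.80 in control, 11.33, 11.39 and 11.35 after CD40L, and 11.16, 11.00 and 11.18 after LPS. Its groups did not overlap, with differences of 0.56 after CD40L (SE 0.060, adjusted p = 2.36e-05) and 0.32 after LPS (SE 0.060, adjusted p = 0.00987). CD40L and LPS themselves differed by 0.24, which did not pass (adjusted p = 0.159), and a second MRPL39 probe set did not pass. NCAM2, an adhesion molecule of nerve cells on the other side, was dim (6.14) and differed by -0.0016 after CD40L, and the RNAs LINC01692 and LINC00515 nearby did not pass either. MIR155HG, a microRNA host gene, lies in the same stretch, but its probe set names several genes and is not reported here.

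Beside LINC02175, ARHGAP17 and LCMT1 both rose after CD40L. ARHGAP17 rose by 0.73 (SE 0.067, 1.65-fold, adjusted p = 5.21e-06) after CD40L and by 0.31 (SE 0.067, adjusted p = 0.0208) after LPS. LCMT1, which methylates the catalytic subunit of the phosphatase PP2A, rose by 0.26 (SE 0.062, adjusted p = 0.0193) after CD40L. The 0.20 of LINC02175 was smaller, but its level (6.73) is far below those of ARHGAP17 (9.88) and LCMT1 (9.36). The scale understates changes of dim probe sets, so these sizes cannot be ranked. For LINC01215, the brightest probe set of CD47, the signal by which cells hold off phagocytes, gave 0.16 (adjusted p = 0.426), but 1 of its 7 probe sets was higher after each treatment (0.37 after CD40L, adjusted p = 0.002). IFT57, a protein of cilia, differed by -0.01.

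Around the other 3 genes no neighbour's brightest probe set passed. IRF2, a transcription factor of the interferon response beside LINC02363, gave 0.11 after CD40L (SE 0.080, adjusted p = 0.586), and ENPP6 was dim. TCF12, an E protein transcription factor beside LINC00926, gave -0.01 (SE 0.064, adjusted p = 0.977). CDC42 beside LINC00339 gave -0.09 (SE 0.11, adjusted p = 0.809), with 1 of its 5 probe sets higher after LPS. Over the neighbours of all 151 genes, 281 protein coding genes in all, 6.76% rose and 2.85% fell after CD40L, close to the shares of all protein coding genes above. Nothing particular to the neighbours is read from them.

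**Figure D4:**
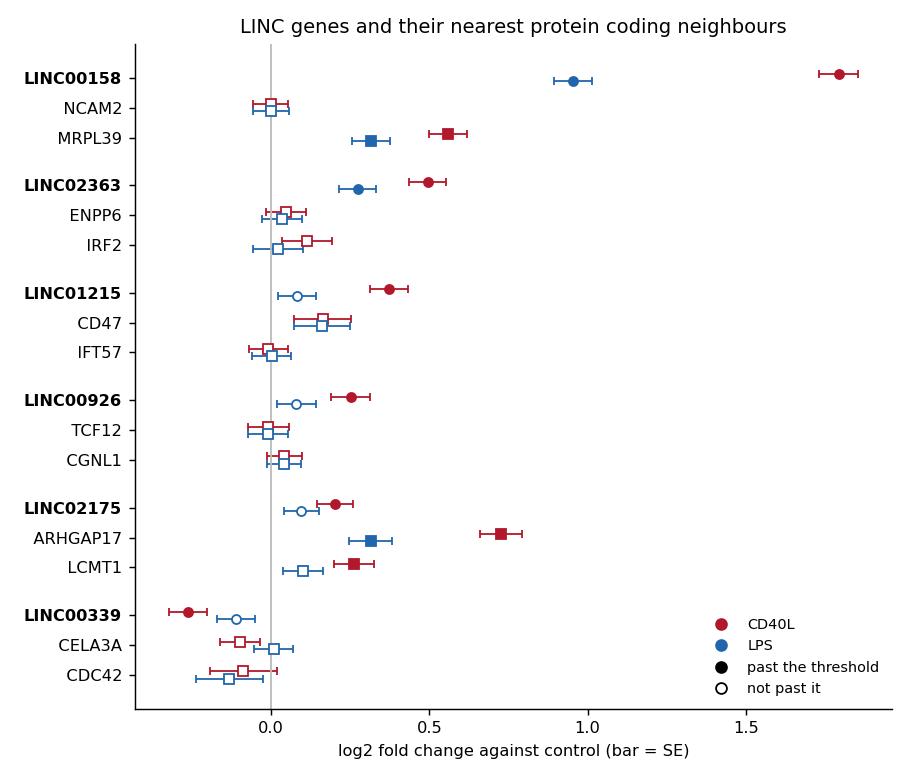
Log2 fold change against control with SE (x axis) for the 6 LINC genes past the test (bold, round) and, under each, its nearest protein coding neighbours (square), after CD40L and LPS. Filled symbols passed the test. MRPL39, ARHGAP17 and LCMT1 are the neighbours with filled symbols.

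Other classes of noncoding RNA were counted in the same way. Among 267 antisense RNA probe sets at or above the floor, 2.25% were higher and 3.75% lower after CD40L, against 2.87% and 0.575% of the LINC probe sets. Of all probe sets at or above the floor, 7.68% were higher and 3.78% lower. DDX11-AS1, antisense to a DNA helicase gene, had the largest fall, by 0.80 (SE 0.064, adjusted p = 1.15e-06). HCP5, a noncoding RNA of the MHC region, rose by 0.88 after CD40L (SE 0.078, adjusted p = 2.94e-06) and by 0.39 after LPS (adjusted p = 0.0133). Of the single long noncoding RNAs on the list, MALAT1, a nuclear speckle RNA, was lower after CD40L by log2 differences of -0.28, -0.28 and -0.33 on 3 of its 7 probe sets at or above the floor, and the other 4 did not pass. Over the whole list of 41 such probe sets, which belong to 13 genes, 2.44% were higher and 9.76% lower. Of the 4 lower, 3 were those of MALAT1, so that share rests on few genes. Of the 7 probe sets for SNHG genes and the 11 for genes with a symbol of the form MIR, number and HG, 0 passed in limma, with 4 and 3 at an unadjusted p under 0.05 after CD40L. At that unadjusted p, 19.7% of all probe sets above the floor were higher and 8.99% lower. With 7 and 11 probe sets nothing is read from these counts. MIR155HG is outside those 11, because its probe set names several genes. The authors list it among the genes most altered by CD40L, so the 0 does not cover all microRNA host genes. DLEU2, a microRNA host gene by another name, was higher after LPS on 1 probe set, by 0.31 (adjusted p = 0.0495). The differences between classes in these shares were not tested.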

How the data were processed

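RNA of BL2 cells was hybridised to HG-U133 Plus 2.0 arrays, 3 per condition, grouped by the labels. The authors corrected background and normalised probe intensities by variance stabilisation, combined probes into probe sets by median polish, and deposited values on a generalised log2 scale, which compresses dim signals. These log2 values were used as given. Precision is set by the number of arrays.

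Of 54675 probe sets, 62 AFFX controls were left out. limma 3.58.1 (R 4.3.3) fitted condition and batch to all 9 arrays, with 4 residual and 11.6 prior degrees of freedom, two-sided tests and Benjamini-Hochberg adjustment over 54613 probe sets. Batch is a term because the study's methods pair arrays by experimental batch. The deviations of same-batch arrays from their group means had a mean correlation of 0.217 over 9 pairs (-0.181 to 0.466, with 2 under 0.1). The fit was tested on simulated data.

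The platform annotation names 1 gene for 41091 tested probe sets, several for 1801 and none for 11721; only the first were named. Named are members past the threshold and other probe sets of their genes, the 10 brightest, 3 on each side of the floor, members with a control mean under it, and neighbouring genes. LINC00674, LINC02210, LINC01649, LINC01806, DDX11-AS1, HCP5, MALAT1 and DLEU2 were named after their values were seen. Members, lists and tests were chosen with earlier results of these data known. RefSeq's GRCh38.p14 tables gave gene order and promoters.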

Additional observations from a re-analysis of the deposited data

How the results depend on the processing

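Of the 11 refits tried, all kept the calls of LINC00158 in its 3 comparisons and of LINC02363 and LINC01215 after CD40L. Fewer LINC probe sets were called higher after CD40L (5 in the report) without the replicate block (3), with the replicate block as a random effect (3, consensus correlation 0.0724) and with only the groups compared (3), where the share of all probe sets called higher was 1.62%, 2.04% and 2.05% in place of 3.71%. After LPS (2 in the report) the count was 1 without the replicate block and 1 with it as a random effect (0.286% and 0.452% of all probe sets in place of 1.17%). The count lower after CD40L (1 in the report) was 0 with only the groups compared, 3 after quantile normalization (1.24% and 3.1% of all probe sets in place of 1.87%) and 2 with no floor. Higher after CD40L than after LPS (1 in the report) were 2 with only the groups compared, where the share of all probe sets was not counted. Among members by control mean 0 were, as LINC00158 drops out, and for the same reason 1 was higher after LPS. Leaving out replicates 1, 2 and 3 in turn gave 3, 6 and 3 higher after CD40L, with 1.61%, 2.2% and 2.53% of all probe sets. Lower after CD40L were 0, 1 and 1 (0.822%, 2.38% and 0.855% of all). Higher after LPS were 1, 3 and 1 (0.293%, 1.07% and 0.269% of all). Without replicate 2 the added probe set was LINC01806 (0.25 after CD40L, adjusted p = 0.0324, and 0.28 after LPS, adjusted p = 0.0257). Like that of LINC00158, this probe set had a control mean under the floor (6.4734) and became a member only through treated arrays. No value changed sign. The cause of these shifts was not tested. Counts of 0 lower after LPS, or lower after CD40L than after LPS, held in every refit. Signal near the array median limits what can be seen for most LINC RNAs, and no detection calls were used here.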
